A study of Mus musculus with 6 samples.

Results

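Midkine (Mdk), pleiotrophin (Ptn) and hepatocyte growth factor (Hgf), with the receptors and co-receptors Met, syndecan-1 (Sdc1) and syndecan-4 (Sdc4), were followed in Pdgfra-GFP mouse lung fibroblasts (FBs) and in the epithelium of organoids grown with such cells. The 6 genes were listed by symbol, and all 6 were found in every count table, among 30828 to 32285 gene rows. Single cells were sequenced in droplets from 6 libraries, 1 per condition. In each, the Pdgfra-GFP cells were pooled from 3 mice, so no spread between mice can be given and nothing was tested between conditions. In the lung experiments, GFP+ cells were sorted from mice labelled Pdgfra-GFP or PDGFRa-EGFP, whose reporter is driven from the endogenous Pdgfra locus. A control mouse received 50 µl of PBS by oropharyngeal aspiration and a treated mouse received bleomycin, a drug that injures the alveolar lining, by the same route. The single-dose libraries were made on day 14, with the bleomycin dose given as 4 U/kg in the treatment field and as 2 U/kg in the protocol of the labels. The repetitive libraries followed 3 weekly doses of PBS, or of bleomycin at 1 U/kg in the first weeks and 0.5 U/kg in the last, with lungs taken 2 weeks after the last dose. In the organoid experiment, tomato+ alveolar type 2 cells (AEC2s) from SpcCreER mice given tamoxifen, where Cre is driven by the gene for surfactant protein C, were cultured for 2 weeks in matrigel. They grew with GFP+ FBs of donors labelled PDGFRa-EGF, taken 14 days after PBS (normal FBs) or after 2 U/kg of bleomycin (fibrogenic FBs). The number of mice that gave the AEC2s is not given here. The sort gate keeps GFP+ cells, so lung epithelial and immune cells are present only as barcodes that passed it.

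Midkine and pleiotrophin are the only members of a small family of secreted heparin-binding growth factors. Both are strongly expressed in the developing embryo, and both bind receptors such as Ptprz1, Alk, Lrp1 and integrins together with syndecans, the transmembrane proteoglycans whose heparan sulfate chains hold such ligands at the cell surface. HGF is secreted by mesenchymal cells as an inactive precursor, is cleaved by serine proteases and binds Met, a receptor tyrosine kinase of epithelial cells, with heparan sulfate as a cofactor. In the lung this route from FB to AEC2 is known for its mitogenic and protective effects on alveolar epithelium. Syndecan-1 is typical of epithelial cells and plasma cells, and syndecan-4 is found on most adherent cells, where it takes part in focal adhesion.

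In GRCm38 with the GENCODE M21 annotation, Mdk lies on the minus strand at chr2:91929805-91932297, Ptn on the minus strand at chr6:36714929-36810220 and Hgf on the plus strand at chr5:16553495-16620152. Met lies on the plus strand at chr6:17463800-17573980, Sdc1 on the plus strand at chr12:8771323-8793715 and Sdc4 on the minus strand at chr2:164424247-164443887. Of these genes, Hgf overlaps others on its own strand, Gm43489 and Gm42975, and reads in the shared part cannot be told apart. The promoters of Met and Sdc1 are shown because these were the receptors whose levels stood apart between the epithelial populations described below. The letters are the bases just before the first start of the gene in either RefSeq or GENCODE, from RefSeq GRCm38.p6, plus strand, and capitals mark GGGCGG, the GC box, which was searched on both strands.
Met, chr6:17463707-17463799: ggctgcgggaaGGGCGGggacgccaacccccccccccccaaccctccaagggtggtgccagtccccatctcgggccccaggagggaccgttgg
Sdc1, chr12:8771146-8771322: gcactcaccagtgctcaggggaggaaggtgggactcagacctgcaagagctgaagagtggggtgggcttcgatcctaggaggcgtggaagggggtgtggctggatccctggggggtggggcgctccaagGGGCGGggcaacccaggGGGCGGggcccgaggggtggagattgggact
Of the 6 genes, 5 matched the RefSeq promoter table by symbol and Mdk did not. In the 250 bases before the RefSeq starts, GGGCGG was found 3 times for Met, 3 times for Sdc1 and 4 times for Sdc4, and 0 times for Ptn and for both Hgf starts. At least 1 GGGCGG stood in 32.7% of the 32851 promoters of the table. The AP-1 letters TGANTCA occurred once, in the Met window, against 6.75% of all promoters. The letters CCAAT occurred in the Sdc1 and Ptn windows, against 33.9% of all promoters. These are matches of letters and no binding was measured.

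Values are unique molecular identifiers (UMIs), which count captured mRNA molecules, summed over the cells of a class in a library and given as counts per 1000000 UMIs of that class (CPM). Brackets give exact 95% intervals. They cover counting error only, and they are too narrow where a few cells carry most UMIs of a gene. Libraries held 1015 to 10737 barcodes and 7201081 to 238618743 UMIs, and any pair of libraries shared at most 30 barcodes. Shallow barcodes set apart the repetitive bleomycin library (median of 2478 UMIs, 43.7% of barcodes under 2000 UMIs) and the fibrogenic organoid library (median of 4290 UMIs, 33.5% under 2000) from the others (5.31% to 15.9%). After filtering, FBs numbered 892 (single-dose PBS), 804 (single-dose bleomycin), 5364 (repetitive PBS) and 8066 (repetitive bleomycin). In the organoids, 1914 FBs and 1734 epithelial cells came from the normal library, and 2943 FBs and 1406 epithelial cells from the fibrogenic library. These FBs include the few-UMI clusters A (20 normal and 651 fibrogenic cells), F (44 and 285) and Q (7 and 94). Their medians were 2752, 2231 and 1628 UMIs, with Cdk8 and Lars2 among their leading genes, so unthinned shares of organoid FBs are not at equal depth. Clusters that held markers of both lineages (3.07% and 7.95% of barcodes) or that matched no cell class (17.6% and 34.4%) were left out. All 6 FB markers were present in each FB class, and epithelial markers summed to 0.804 to 11.0 CPM in lung FBs against 1254 to 1767 CPM in the epithelial barcodes of the same libraries. Markers of lipofibroblasts (LipoFBs) summed to 13579 CPM in PBS and 3855 CPM in bleomycin FBs of the single-dose experiment, and those of myofibroblasts (MyoFBs) to 222 and 5543 CPM. Most FB clusters came mainly from 1 library, so a cluster and a treatment cannot be told apart there. In these sums, fewer cells expressing a gene and less RNA per cell also cannot be told apart. Levels are compared only within an experiment, since gene annotation and depth differed between experiments, and the correlations over all groups given last are the exception.

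**Figure D1:**
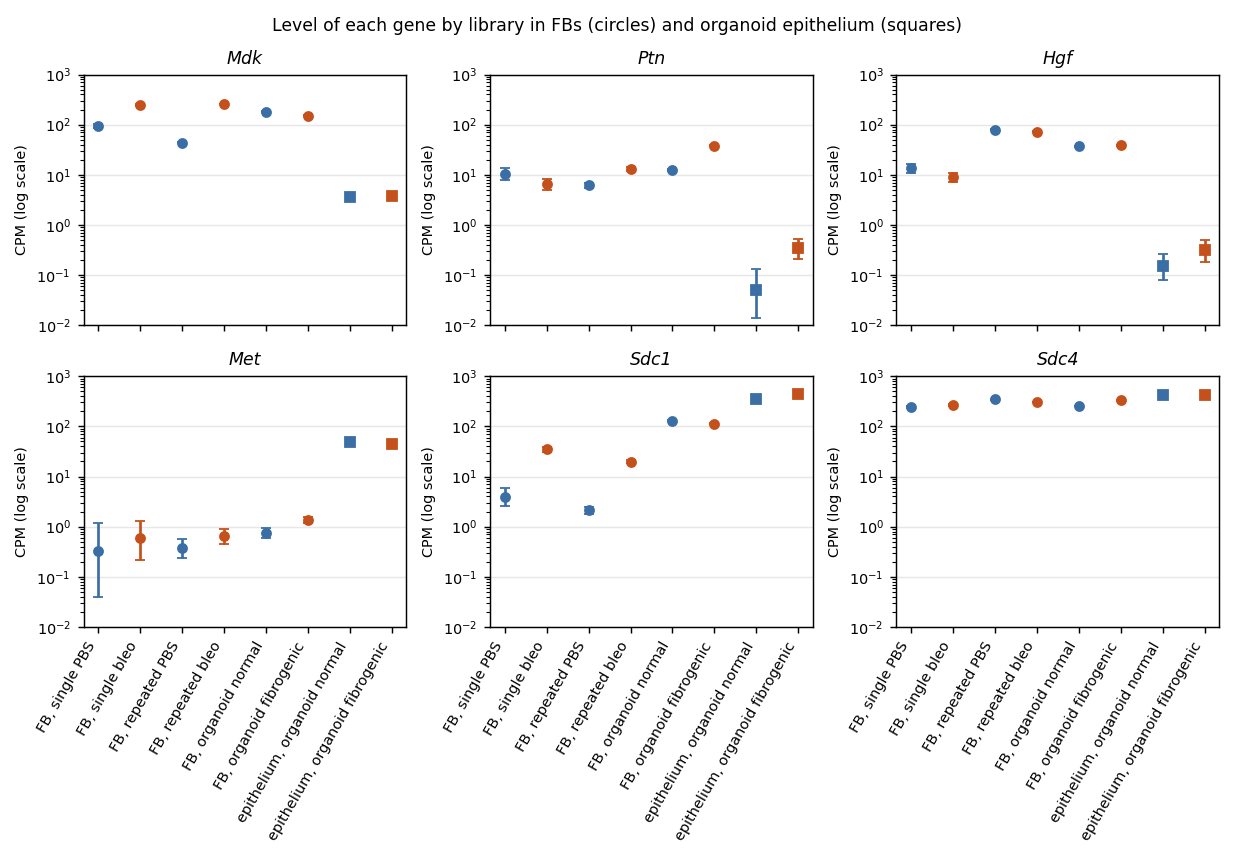
Level of each gene (CPM, log axis) by library, with circles for FBs and squares for organoid epithelium, blue for PBS or normal FBs, orange for bleomycin or fibrogenic FBs, and bars for exact 95% Poisson intervals. Mdk and Sdc1 are higher in the bleomycin FBs of both lung experiments, and Met is near 0 in FBs and between 44.0 and 49.5 CPM in organoid epithelium.

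Of the 6 genes, Mdk and Sdc1 were more than 2-fold higher in bleomycin than in PBS lung FBs in both experiments. A gene was tested against this limit where its mean over both libraries was at least 5 CPM, and it was past 2-fold where the log2 ratio after adding 1 CPM was at least 1 or at most −1. In the single-dose FBs, 5 members were tested, 2 were higher past 2-fold and 0 were lower, and of all genes tested 6.68% were higher and 3.77% lower. In the repetitive FBs, 5 members were tested, 2 were higher and 0 were lower, and of all genes 5.44% were higher and 2.17% lower. Organoid FBs had 5 members tested, with 1 (Ptn) higher and 0 lower, against 0.333% higher and 0.778% lower of all genes, and the Ptn call rested on 1 FB cluster. In the organoid epithelium 3 members were tested (Met, Sdc1 and Sdc4), and 0 were past the limit in either direction, against 0.213% higher and 0.142% lower of all genes. The median log2 ratio of all genes tested was between 0.01 and 0.10 in the 4 comparisons.

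**Figure D2:**
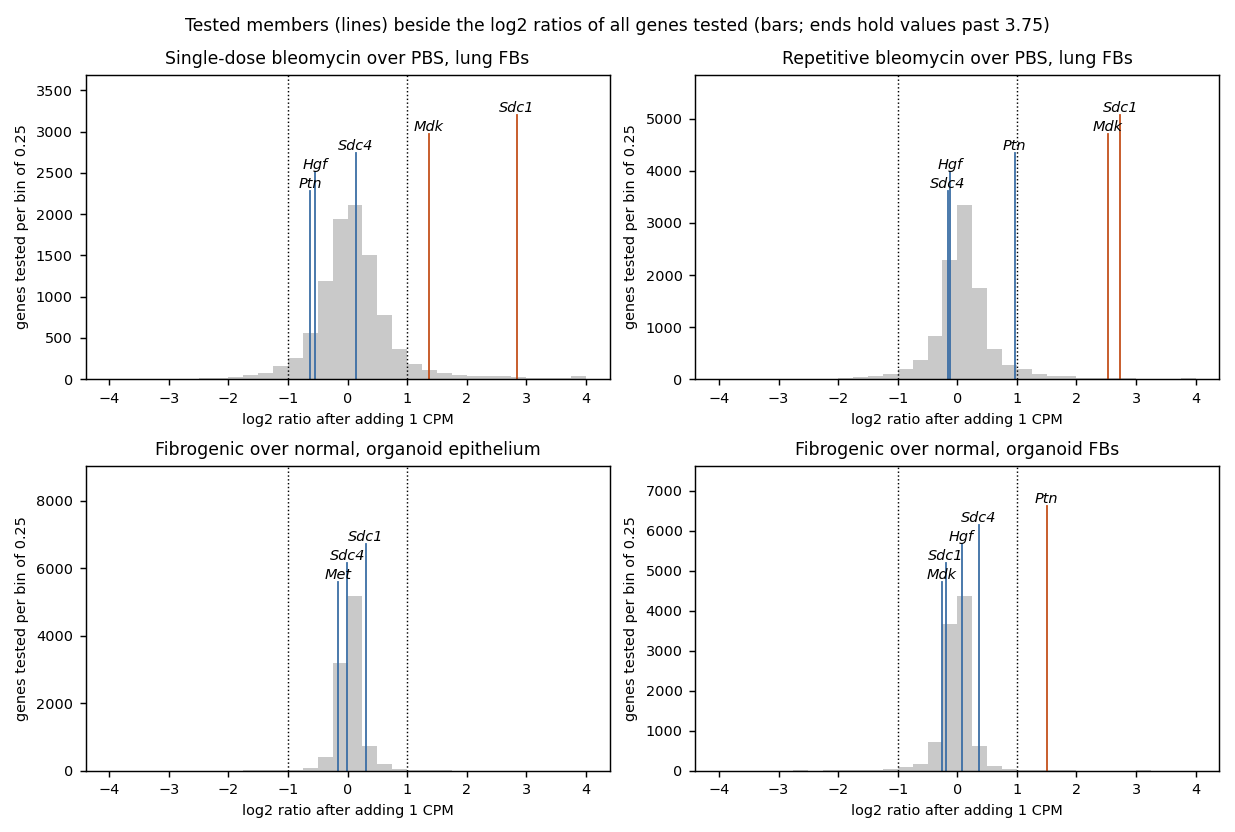
Log2 ratio of treated over control (x axis) for all genes tested in the 4 comparisons, with grey bars counting genes per bin of 0.25, vertical lines for the members tested (orange past 2-fold, blue inside it), dotted lines at −1 and 1, and end bins holding all values past 3.75. Mdk and Sdc1 lie past the upper limit in both lung comparisons, Ptn lies past it in organoid FBs, and no member lies past it in organoid epithelium.

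Mdk was the ligand with the widest difference between PBS and bleomycin FBs. After a single dose, PBS FBs held 94.4 CPM [86.8 to 102] of Mdk and bleomycin FBs 245 CPM [235 to 255], which was 2.59-fold [2.37 to 2.85] higher (log2 ratio 1.37). After repetitive doses it stood at 44.0 CPM [42.3 to 45.7] and 259 CPM [255 to 263], which was 5.88-fold [5.64 to 6.14] higher (log2 ratio 2.53). To compare shares at equal depth, cells with at least 2000 UMIs were thinned to that number, and shallower cells were left out. This kept 845 of 892 and 775 of 804 single-dose FBs, 5201 of 5364 repetitive PBS FBs and 4800 of 8066 repetitive bleomycin FBs. Of these, 14.3% and 31.7% had a Mdk UMI in the single-dose and 8.25% and 32.6% in the repetitive experiment. Unthinned shares were 32.4% and 67.2%, and 24.3% and 44.8%, at median depths of 6860 and 11731 UMIs, and 10538 and 2880 UMIs. So the share followed the CPM in both experiments once depth was equal. The Mdk UMIs were spread over many cells, with at most 13.8% of them in the 10 cells that held most. The largest repetitive FB cluster, A (48 PBS and 2004 bleomycin cells), had a median of only 1142.5 UMIs. Its leading genes included AY036118, Cdk8 and Lars2 as well as Mdk, and the part of RNA quality in the Mdk difference was not tested.

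Mdk was low in the clusters named LipoFB-like here (single-dose A and repetitive B), which came mainly from PBS libraries. The study counts other clusters as LipoFBs too, among them clusters from bleomycin lungs, so the name is narrower here. Mdk was high in most clusters from bleomycin libraries. In the repetitive experiment it stood at 14.0 CPM [12.0 to 16.2] in the LipoFB-like cluster B (1369 PBS and 24 bleomycin cells) and at 5.95 CPM [3.98 to 8.54] in cluster M, led by Hopx (417 and 6 cells). The other clusters mainly from PBS ranged from 19.8 CPM (cluster D, led by Mat2a) to 114 CPM (cluster H, led by Gipc2). Among clusters of at least 50 cells with under 50 PBS cells, Mdk was highest in cluster Q (465 CPM [401 to 536], 165 cells). Cluster Q was led by Cd74, H2-Ab1 and Kif26b, with the antibody gene Igkc also among its leading genes. Next were cluster E (381 CPM [372 to 391], 1178 cells, led by Chl1, Tmem178 and Col28a1) and the MyoFB-like cluster O (299.7 CPM [283 to 317], 373 cells). Of the clusters compared in this way, the lowest was the cycling cluster T, at 80.1 CPM [60.7 to 104]. The pattern was alike in the single-dose FBs. There the LipoFB-like cluster A held 51.4 CPM [41.7 to 62.7] and cluster B, led by Tmem178, Saa3 and Col28a1 with 3 PBS and 285 bleomycin cells, held 377 CPM [358 to 396]. PBS FBs were not uniformly low, since cluster E (217 PBS and 6 bleomycin cells, led by Kcnk2 and Slco2b1) held 182 CPM [162 to 203], close to the 179 CPM [164 to 195] of cluster D, which came from bleomycin alone and was led by Hp and Lcn2.

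**Figure D3:**
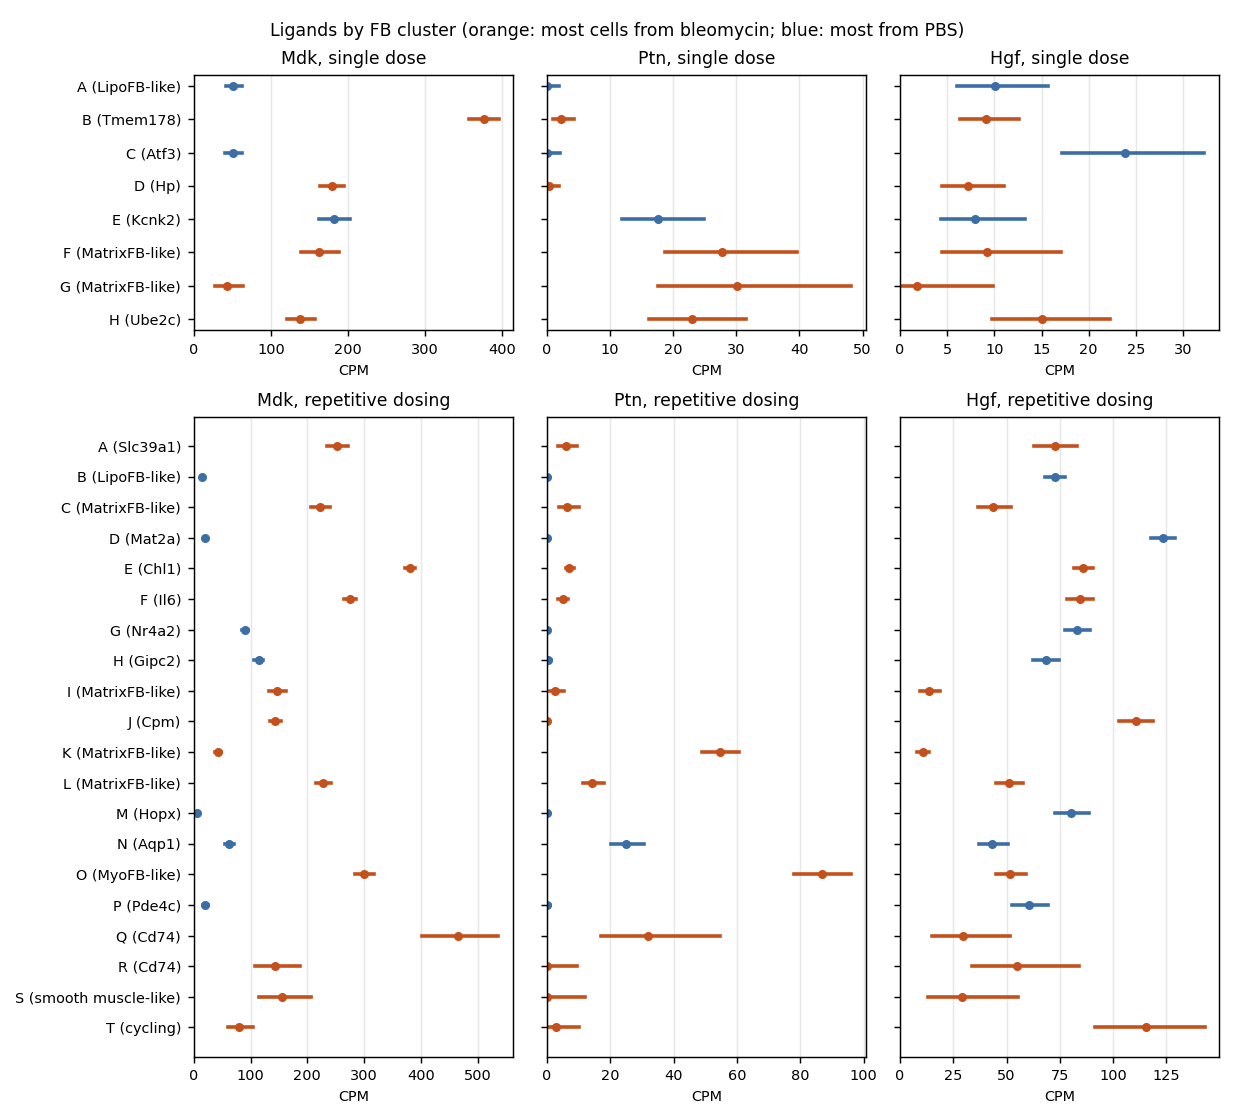
CPM of Mdk, Ptn and Hgf in each FB cluster of at least 50 cells in the single-dose and repetitive experiments, in blue where most cells came from PBS and in orange where most came from bleomycin, with exact 95% Poisson intervals as bars. Mdk is high in most lung clusters from bleomycin, Ptn stands out in few clusters such as MyoFB-like O and MatrixFB-like K of the repetitive experiment, and repetitive Hgf spans both colours.

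Within clusters that held at least 50 cells of both libraries, the difference in Mdk was smaller than over all FBs and depended on the cluster. In the single-dose matrix FB-like (MatrixFB-like) cluster F the level in bleomycin was 1.06-fold [0.759 to 1.50] that in PBS. In the repetitive MatrixFB-like cluster K, led by Sult1e1 and Pcsk6, it was 0.989-fold [0.770 to 1.27]. It was 1.47-fold [1.20 to 1.80] in the MatrixFB-like cluster I, 2.16-fold [1.71 to 2.77] in the MatrixFB-like cluster L and 2.65-fold [2.00 to 3.53] in cluster N, led by Aqp1 and Adh7. So none of the 5 shared clusters reached the ratio over all FBs of its experiment. They were MatrixFB-like apart from N, and no LipoFB-like cluster was among them. The ratio within the other FB clusters is therefore not known.

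Barcodes of other cell types held Mdk UMIs too, and more of them after bleomycin. In the repetitive experiment, T cells of PBS held 20.2 CPM [11.8 to 32.4] and those of bleomycin 106 CPM [84.0 to 131], and endothelial cells held 15.6 CPM [10.5 to 22.5] and 140.5 CPM [115 to 170]. Neutrophils held 10.5 CPM [1.27 to 38.0] and 283 CPM [249 to 322]. FB markers were counted in the same barcodes. In repetitive bleomycin, these other classes stood at 11.8% to 79.5% of the FB level for the summed FB markers and at 29.1% to 109.5% of the FB level for Mdk. In repetitive PBS, without 2 plasma cells, these ranges were 3.5% to 33.2% and 14.0% to 46.0%. After thinning, a Mdk UMI was present in 2.75% of 109 PBS T cells (of 128) and 16.0% of 106 bleomycin T cells (of 137), below the 8.25% and 32.6% of the FBs that were thinned. The part of FB RNA in the Mdk of other cell types was not tested.

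**Figure D4:**
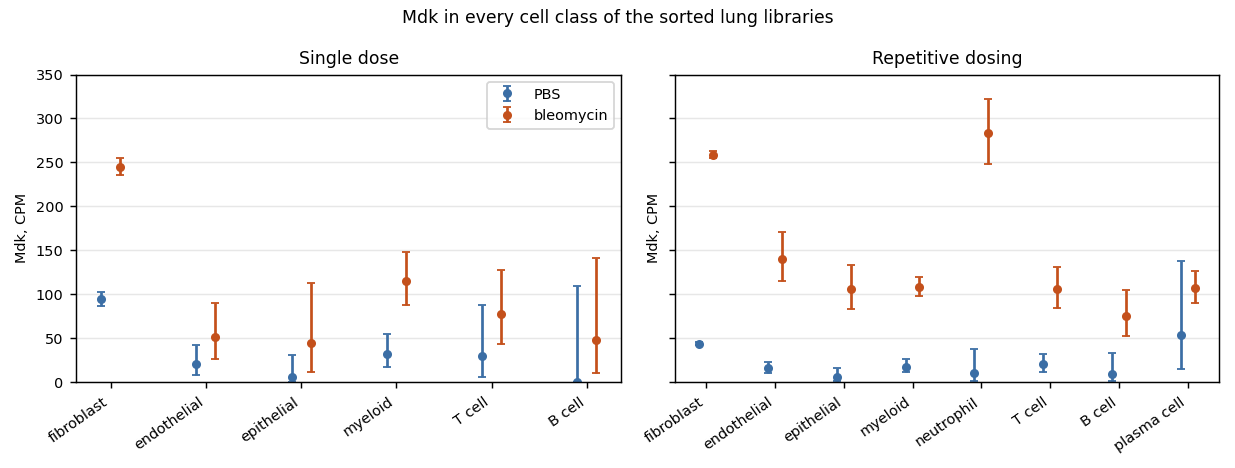
Mdk level (CPM, linear axis) in each cell class of the lung libraries, blue for PBS and orange for bleomycin, with exact 95% Poisson intervals. Mdk is higher in FBs than in T cells, B cells, myeloid, endothelial and epithelial barcodes of the same library, while neutrophils of the repetitive bleomycin library reach the FB level.

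Ptn was carried by few FBs, and its level turned on them. After a single dose, PBS FBs held 10.5 CPM [8.06 to 13.4] of Ptn and bleomycin FBs 6.44 CPM [4.98 to 8.19], which was 0.614-fold [0.428 to 0.882] and not past 2-fold. The 63 UMIs of PBS lay in 9 of 892 cells and the 66 UMIs of bleomycin in 28 of 804 cells, so the share of cells with a UMI (1.01% and 3.48%) went against the CPM and no order was read. After repetitive doses, PBS FBs held 6.19 CPM [5.57 to 6.87] of Ptn and bleomycin FBs 13.0 CPM [12.1 to 14.0], which was 2.10-fold [1.85 to 2.39] higher, with a log2 ratio after adding 1 CPM of 0.96, just inside the limit. In PBS, 30 of 5364 cells held the 362 UMIs, with 71 in the highest cell and 88.7% in the 10 highest. In bleomycin, 178 of 8066 cells held 749 UMIs, with 38 in the highest cell and 32.7% in the 10 highest.

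Ptn was high in a few FB clusters and was not detected in the LipoFB-like ones. In the repetitive experiment it was highest in the MyoFB-like cluster O, at 86.7 CPM [78.1 to 96.0] with a UMI in 13.1% of cells. The MatrixFB-like cluster K followed at 54.6 CPM [49.0 to 60.8], and clusters Q and N held 32.0 and 25.1 CPM. The MatrixFB-like clusters I and L were lower, at 2.62 CPM [1.05 to 5.40] and 14.4 CPM [11.3 to 18.1]. LipoFB-like cluster B had 0 UMIs, where 3 UMIs would give 0.239 CPM. In the single-dose FBs, clusters A (LipoFB-like) and C (led by Atf3) also had 0 UMIs. Cluster H, which had raised MyoFB markers but was led mainly by cycling genes such as Ube2c and Ccnb1, held 22.9 CPM [16.2 to 31.5] with a UMI in 14.7% of cells. The MatrixFB-like clusters F and G held 27.8 CPM [18.7 to 39.6] and 30.1 CPM [17.5 to 48.2]. In cluster K, Ptn was 106 CPM in PBS and 18.9 CPM in bleomycin, 0.178-fold [0.134 to 0.232], but 269 UMIs of PBS came from 8 cells and 69 UMIs of bleomycin from 12 cells. In cluster N it was 12.0 CPM (12 cells) and 41.2 CPM (22 cells), 3.43-fold [2.14 to 5.65]. The other shared clusters were lower in bleomycin, with 65.1 and 6.80 CPM in L (2 and 5 cells), 4.14 and 0.819 CPM in I (1 cell each) and, after a single dose, 58.2 and 14.6 CPM in F (2 and 4 cells). So Ptn was lower in 4 of the 5 shared clusters, 3 of them with at most 5 carrying cells per library, although the level over all repetitive FBs was higher.

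Hgf did not pass 2-fold in either lung experiment. After a single dose, PBS FBs held 13.5 CPM [10.7 to 16.8] of Hgf and bleomycin FBs 8.88 CPM [7.15 to 10.9], 0.659-fold [0.483 to 0.90], on 81 and 91 UMIs. After repetitive doses it stood at 79.6 CPM [77.3 to 81.9] and 72.9 CPM [70.7 to 75.1], 0.916-fold [0.878 to 0.955]. At 2000 UMIs per cell, 11.2% of PBS and 11.1% of bleomycin FBs of the repetitive experiment had a Hgf UMI, so the shares were nearly equal. The level of Hgf in LipoFB-like cells (72.7 CPM [68.1 to 77.6] in repetitive cluster B) was near that in clusters from bleomycin such as E (86.1 CPM [81.8 to 90.5]), whereas Mdk was far lower in B than in E. The highest level of a cluster was 123 CPM [118 to 129] in the PBS cluster D, led by Mat2a, followed by the cycling cluster T (115 CPM [91.7 to 143]) and the bleomycin cluster J (110.5 CPM [103 to 119], led by Cpm and Kcnb2). The intervals of T and J overlapped that of D. Among clusters of at least 50 cells, Hgf was lowest in the MatrixFB-like clusters K (10.7 CPM [8.25 to 13.6]) and I (13.5 CPM [9.44 to 18.7]). Within the repetitive clusters of both libraries the level in bleomycin was 2.10-fold [1.02 to 4.52] that of PBS in I, 1.80-fold [1.14 to 2.99] in L, 1.86-fold [1.35 to 2.59] in N and 0.832-fold [0.498 to 1.40] in K. In the single-dose cluster F it was 6.13 CPM in PBS and 10.6 CPM in bleomycin, 1.73-fold [0.345 to 16.7] on 2 and 8 UMIs. Other cells of the repetitive experiment held Hgf as well, with 48.5 CPM [39.0 to 59.6] and 45.0 CPM [31.0 to 63.2] in endothelial, 37.2 CPM [27.8 to 48.8] and 46.4 CPM [39.6 to 53.9] in myeloid, and 47.3 CPM [21.6 to 89.8] and 69.95 CPM [53.2 to 90.2] in neutrophil barcodes. In bleomycin these were 61.7%, 63.6% and 96.0% of the FB level, where the summed FB markers stood at 59.6%, 40.9% and 79.5% of it, and the part of FB RNA was not tested. The few epithelial barcodes held 3.08 and 2.86 CPM.

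In the organoids, mRNA of the ligands was higher in FBs than in epithelium. Other barcodes were not compared, and ligand protein was not measured. Mdk stood at 181 CPM [179 to 184] in normal and 151 CPM [149 to 153] in fibrogenic FBs, 0.833-fold [0.817 to 0.849], and at 3.56 CPM [3.15 to 4.00] and 3.74 CPM [3.26 to 4.27] in the epithelium of the same libraries. Hgf stood at 36.8 CPM [35.7 to 38.0] and 38.8 CPM [37.8 to 39.8] in FBs, 1.05-fold [1.01 to 1.10], and at 0.153 and 0.312 CPM in epithelium. Ptn was the member past 2-fold, at 12.6 CPM [12.0 to 13.3] in normal and 37.7 CPM [36.7 to 38.7] in fibrogenic FBs, 2.98-fold [2.81 to 3.16] higher (log2 ratio 1.50). These UMIs lay in 148 of 1914 normal and 222 of 2943 fibrogenic cells (7.73% and 7.54%), and 1900 of the normal and 2516 of the fibrogenic FBs had at least 2000 UMIs. At 2000 UMIs per cell the shares were 1.42% [0.939 to 2.06] and 2.98% [2.35 to 3.72], against 0.0594% and 0.0746% in epithelium, so the share was higher in fibrogenic FBs once depth was equal. Without the 10 highest cells, Ptn stood at 5.45 CPM in normal and 24.2 CPM in fibrogenic FBs.

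Cluster B, which was led by the interferon-response genes Ifit1 and Ifit3, carried most of the Ptn of the fibrogenic FBs. It held 4470 of their 5623 UMIs, in 68 of its 366 fibrogenic cells, and 163 UMIs in 16 of its 157 normal cells. Its Ptn level was 15.7 CPM in normal and 156 CPM in fibrogenic cells, 9.94-fold [8.50 to 11.7] higher. Without cluster B, an alternative chosen after seeing the data, Ptn stood at 12.3 CPM [11.6 to 13.0] in normal and 9.56 CPM [9.02 to 10.1] in fibrogenic FBs, 0.776-fold [0.715 to 0.842] (log2 ratio −0.34), so the direction turned and no member was past 2-fold. The other clusters differed in direction. In the cycling cluster I the level was 2.90 CPM in normal and 23.1 CPM in fibrogenic cells, 7.95-fold [5.29 to 12.5]. In cluster C, led by Frmd3, Cldn2 and Lum, it was 44.2 and 24.7 CPM, 0.559-fold [0.490 to 0.635]. In cluster E, led by Aqp1, it was 11.9 and 4.18 CPM, 0.350-fold [0.225 to 0.527]. Mdk differed less within clusters of at least 50 cells of both libraries, with fibrogenic levels 0.661-fold (I) to 1.24-fold (D) those of normal cells. Mdk was highest in cluster G, led by Chrdl1 (352 CPM [343 to 362]). Hgf was highest in cluster L, led by Fgf23 (75.5 CPM [70.7 to 80.5]).

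Met, the HGF receptor, was an epithelial gene in the organoids. In epithelium it stood at 49.5 CPM [48.0 to 51.1] with normal and 44.0 CPM [42.3 to 45.8] with fibrogenic FBs, 0.889-fold [0.845 to 0.935], and in organoid FBs at 0.739 CPM [0.586 to 0.919] and 1.37 CPM [1.19 to 1.57]. At 2000 UMIs per cell, 8.67% [7.37 to 10.1] and 8.88% [7.41 to 10.5] of epithelial cells had a Met UMI, with overlapping intervals, and unthinned the shares were 73.9% and 64.5%. Sdc1 stood at 351 CPM [347 to 355] and 435 CPM [430 to 441] in epithelium, 1.24-fold [1.22 to 1.26] higher with fibrogenic FBs and not past 2-fold. Sdc4 stood at 414 CPM [410 to 419] and 413 CPM [408 to 419], 0.998-fold [0.982 to 1.02]. All 3 receptors were thus within 2-fold between the 2 kinds of FBs. FB markers in the same epithelial barcodes summed to 67.2 and 117 CPM, and their part in these small differences was not tested. The make-up of the epithelium differed too. The PATS-like clusters described below held 145 normal and 165 fibrogenic cells (E) and 48 and 91 (M), of 1734 and 1406 epithelial cells. The part of this make-up was not tested either.

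For Met and Sdc1, PATS-like and AEC2-like cells of the organoids differed more than the conditions did. Clusters were named AEC2-like (939 and 683 cells), AEC1-like for alveolar type 1 (293 and 250 cells) and PATS-like for the transitional state between them (193 and 256 cells), from markers that do not include the 6 genes. They were cut from these same cells, so the comparison of populations is a description. Met was highest in AEC2-like cells, at 59.8 CPM [57.6 to 62.1] with normal and 56.3 CPM [53.7 to 59.0] with fibrogenic FBs. PATS-like cells held 25.3 CPM [22.1 to 28.8] and 25.2 CPM [22.4 to 28.2], which was 0.423-fold [0.368 to 0.484] and 0.447-fold [0.394 to 0.506] the AEC2-like level and lower past 2-fold in both libraries. AEC1-like cells held 29.6 CPM [26.6 to 32.9] and 22.2 CPM [19.1 to 25.6], with log2 ratios to AEC2-like cells of −0.99, just inside the limit, and −1.31, past it. These cells were not uniform, since Met stood at 53.1 CPM [45.9 to 61.1] and 44.4 CPM [34.5 to 56.3] in their cluster L (91 and 48 cells, led by Susd2). In an alternative chosen after seeing the data, L was left out because its Met was the highest of the AEC1-like clusters. The other AEC1-like cells then held 18.7 CPM [15.8 to 22.0] and 17.2 CPM [14.2 to 20.6], with log2 ratios of −1.63 and −1.65. A lower level followed from that choice, so these values only describe the remaining cells. The AEC2-like cells include cluster K (90 and 63 cells), whose 10 leading genes were all S-phase genes. In a further such alternative, without K, the AEC2-like level of Met was 60.6 and 58.05 CPM, the ratio of AEC1-like cells in the normal library passed the limit (log2 ratio −1.01), and those of PATS-like cells stayed past it (−1.23 and −1.17). The Met intervals of PATS-like and AEC1-like cells overlapped in each library.

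Sdc1, in contrast to Met, was higher in PATS-like than in AEC2-like cells. PATS-like cells held 813 CPM [795 to 832] with normal and 825 CPM [809 to 842] with fibrogenic FBs, against 287 CPM [282 to 292] and 340.5 CPM [334 to 347] in AEC2-like cells. The PATS-like level was 2.83-fold [2.75 to 2.91] and 2.42-fold [2.36 to 2.49] higher, past 2-fold in both libraries, and without cluster K it was 2.79-fold and 2.38-fold. AEC1-like cells held 353 and 363 CPM, 1.23-fold and 1.07-fold the AEC2-like level, and cycling epithelial cells held 247 and 264 CPM. Both PATS-like clusters were high, with 844 CPM in E (led by Grip1, Tcim and Hs6st2) and 750 CPM in M (led by AW112010 and Htra4). Sdc4 varied less, from 342 CPM in PATS-like to 449 CPM in AEC2-like cells with normal FBs and from 374 to 448 CPM with fibrogenic FBs. So of the 3 receptors tested, PATS-like over AEC2-like cells gave 1 higher and 1 lower in each library. The background was wide here, with 17.4% of all genes higher and 8.81% lower in the normal library, and 14.6% higher and 9.0% lower in the fibrogenic library. With clusters K and L kept, for AEC1-like over AEC2-like cells 0 of 3 were past the limit in the normal library, against 7.83% higher and 4.66% lower, and 1 (Met) was lower in the fibrogenic library, against 7.11% higher and 4.81% lower. Within epithelial clusters of at least 50 cells of both libraries, fibrogenic over normal was 0.77-fold to 1.25-fold for Met and 0.91-fold to 1.13-fold for Sdc4. For Sdc1 it was 0.91-fold to 1.25-fold outside the few-UMI cluster J (1.78-fold [1.1 to 3.0]). The limit leaves out PATS-like M, AEC1-like L and cycling I, among others.

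**Figure D5:**
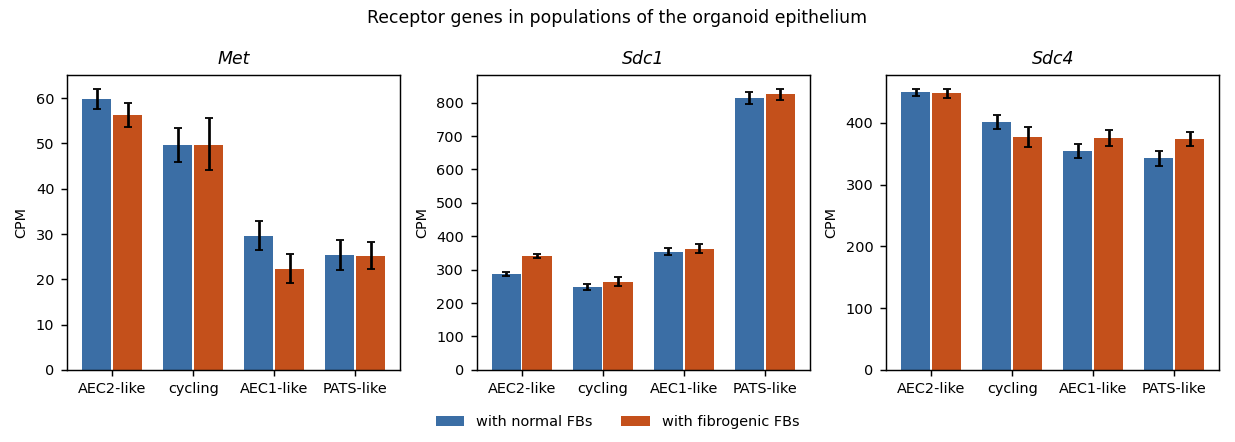
CPM of Met, Sdc1 and Sdc4 (bars from 0) in the AEC2-like, PATS-like, AEC1-like and cycling epithelial cells of the organoids, blue with normal and orange with fibrogenic FBs, with exact 95% Poisson intervals. Met is highest in AEC2-like cells and Sdc1 in PATS-like cells of both libraries, and for both genes the blue and orange bars of these populations differ less than AEC2-like and PATS-like cells do.

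The lung FBs had little Met. It had 2 and 6 UMIs in the single-dose and 22 and 37 UMIs in the repetitive FBs, 0.333 to 0.644 CPM, so no fold was read. In the 38 cells of the mesothelial-like cluster U of the repetitive experiment Met stood at 40.5 CPM [23.2 to 65.8] and Sdc4 at 965 CPM [870 to 1067]. The epithelial barcodes caught by the sort held 177 CPM [146 to 213] of Met in repetitive PBS (39 cells) and 90.2 CPM [69.3 to 115] in repetitive bleomycin (56 cells). FB markers and Mdk were also more frequent in the latter, and their part was not tested.

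Sdc1 was the receptor with the widest ratio in lung FBs, from a low base. After a single dose, PBS FBs held 3.99 CPM [2.56 to 5.94] of Sdc1 and bleomycin FBs 34.8 CPM [31.3 to 38.6], 8.72-fold [5.77 to 13.8] higher (log2 ratio 2.84). After repetitive doses it stood at 2.10 CPM [1.75 to 2.51] and 19.7 CPM [18.6 to 20.9], 9.37-fold [7.77 to 11.4] higher (log2 ratio 2.74). In repetitive PBS, T cells held 7.13 CPM [2.62 to 15.5] of Sdc1, above the FB level, and endothelial and myeloid cells 1.62 CPM [0.334 to 4.73] and 0.715 CPM [0.0181 to 3.99], with intervals that include it. In repetitive bleomycin, endothelial barcodes stood at 41.5% of the FB level of Sdc1, myeloid at 56.3%, T cell at 66.2% and neutrophil barcodes at 84.2%. The part of FB RNA in these was not tested. At 2000 UMIs per cell, 0.592% and 4.26% of single-dose and 0.481% and 2.92% of repetitive FBs had a Sdc1 UMI, and 0% and 1.89% [0.229 to 6.65] of repetitive T cells. So the share in repetitive bleomycin FBs as a whole could not be separated from that in T cells, while the level in FB subsets was higher. Sdc1 stood at 74.0 CPM [66.0 to 82.6] in the MyoFB-like cluster O, at 59.0 CPM [42.5 to 79.8] in the cycling cluster T and at 41.8 CPM [24.4 to 67.0] in cluster Q of the repetitive experiment. The antibody gene Igkc was among the leading genes of Q, and the interval of Q includes the plasma cell level given below. In the single-dose experiment Sdc1 stood at 83.9 CPM [70.6 to 99.1] in cluster H, led mainly by cycling genes, and at 39.3 CPM [33.3 to 46.0] in cluster B. Epithelial markers summed to 2.66 and 11.0 CPM in the single-dose FBs and to 0.804 and 1.93 CPM in the repetitive FBs. Plasma cell markers summed to 1.27 and 21 CPM in the repetitive FBs, where plasma cells of the bleomycin library held 52.0 CPM [40.0 to 66.4] of Sdc1, and their part in the Sdc1 of FBs was not tested. Within shared clusters the level in bleomycin was 5.94-fold [2.23 to 19.9] (I), 1.72-fold [1.14 to 2.66] (K), 2.09-fold [1.11 to 4.05] (N), 1.60-fold [0.741 to 4.13] (L) and, in single-dose cluster F, 1.51-fold [0.591 to 4.58] that of PBS. In cultured FBs Sdc1 stood at 129 CPM [127 to 132] with normal and 113 CPM [111 to 115] with fibrogenic cells, 0.872-fold [0.852 to 0.891], and was highest in cluster C (328 CPM [322 to 335]).

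Sdc4 was found in most FBs and differed little between conditions. After a single dose, PBS FBs held 245 CPM [233 to 258] of Sdc4 and bleomycin FBs 270.4 CPM [260 to 281], 1.10-fold [1.04 to 1.18]. After repetitive doses it stood at 344 CPM [339 to 349] and 307 CPM [303 to 312], 0.893-fold [0.875 to 0.912]. Between clusters the spread was wider than between conditions, from 132 CPM [119 to 147] in the MatrixFB-like cluster I to 658 CPM [641 to 676] in cluster F (led by Il6 and Hk2) among repetitive clusters of at least 50 cells. In organoid FBs it stood at 257 CPM [254 to 260] with normal and 329 CPM [326 to 332] with fibrogenic cells, 1.28-fold [1.26 to 1.30].

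Other genes of these pathways were counted in 6 lists, and a gene may be in more than 1 list. The first list held 15 genes taken as receptors of midkine and pleiotrophin, other than Sdc1 and Sdc4. In the single-dose FBs 8 of them were tested, with 1 higher past 2-fold, 0 lower and a median log2 ratio of 0.54. Over all genes, 6.68% were higher and 3.77% lower, with a median of 0.07. The highest of the list was the proteoglycan Sdc3, at 3.83 CPM in PBS and 21.4 CPM in bleomycin, and the lowest was Sdc2, at 227 and 155 CPM. In the repetitive FBs 8 were tested, 2 were higher (Sdc3 and Cd74) and 0 lower, with a median of 0.06, against 5.44% higher, 2.17% lower and a median of 0.10 over all genes. Sdc3 was again highest (1.69 and 12.7 CPM, 7.50-fold [6.07 to 9.34]), and Cd74, the invariant chain of MHC class II, stood at 6.86 and 38.0 CPM. Cd74 was counted as listed, and its binding of these ligands was not checked. Without it, Sdc3 was the only gene of the list higher past 2-fold there. Cd74 led clusters Q and R, and the 10 leading genes of R were nearly all immune genes, such as Cd52 and Tyrobp, although it was kept among the FBs. Without clusters led by immune genes or named for mesothelial, smooth muscle or cycling cells, the repetitive log2 ratios were 2.55 for Mdk and 2.70 for Sdc1. Myeloid markers summed to 12.1 and 38.6 CPM in the same FBs, and their part in Cd74 was not tested. In contrast to these, Sdc2 stood at 281 and 271 CPM in the repetitive FBs.

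Of the genes listed for making, editing or carrying heparan sulfate, some were higher past 2-fold in lung FBs. None was lower, but few of all genes were (3.77% and 2.17%), so nothing is read from that. Of 16 genes of heparan sulfate synthesis and editing, 11 were tested in the single-dose FBs, with 4 higher (Ext1, Hs2st1, Hs6st1 and Sulf1), 0 lower and a median log2 ratio of 0.53, beside the 6.68%, 3.77% and 0.07 of all genes. In the repetitive FBs 12 were tested, with 3 higher (Xylt1, Sulf1 and Sulf2), 0 lower and a median of 0.54, beside 5.44%, 2.17% and 0.10 for all genes. Sulf1, an extracellular sulfatase that removes sulfate groups from heparan sulfate, was the highest in both, at 18.0 and 56.1 CPM (3.12-fold [2.54 to 3.87]) and at 52.4 and 169.6 CPM (3.23-fold [3.11 to 3.37]). The epimerase Glce was the lowest in both, at 12.8 and 10.7 CPM and at 28.8 and 18.4 CPM. Of 9 other heparan sulfate proteoglycans, 8 were tested in each experiment, with 3 higher after a single dose (Sdc3, Gpc4 and Hspg2, median 0.73), 3 higher after repetitive doses (Sdc3, Gpc4 and Gpc6, median 0.78) and 0 lower. The lowest were the glypican Gpc3 after a single dose, at 330.1 and 165 CPM (0.501-fold [0.469 to 0.535], just inside the limit), and Sdc2 after repetitive doses.

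The lists around HGF, Met and syndecan shedding are read against the same shares of all genes. These were 6.68% higher and 3.77% lower after a single dose, and 5.44% higher and 2.17% lower after repetitive doses. Of 9 HGF-activating proteases and their inhibitors, only Plat and Spint2 were expressed well enough to be tested in lung FBs. Plat, the tissue plasminogen activator, stood at 67.4 and 157 CPM after a single dose (2.33-fold [2.09 to 2.60], past 2-fold) and at 165 and 233 CPM after repetitive doses (1.41-fold [1.38 to 1.45]). Spint2, an inhibitor of these proteases, stood at 127 and 50.3 CPM (0.397-fold [0.354 to 0.444], past 2-fold) and at 57.4 and 31.6 CPM (0.550-fold [0.519 to 0.582]). The medians of these pairs were −0.05 and −0.17. Of 14 Met partners and adaptors, 11 were tested after a single dose with 1 higher (Cd44, at 54.9 and 160.05 CPM), 0 lower and a median of 0.45, and Sos1 was the lowest at 10.2 and 10.3 CPM. After repetitive doses 12 were tested with 2 higher (Ptprj and Lrig1), 0 lower and a median of 0.22. Ptprj, a phosphatase of Met, was the highest at 5.56 and 22.9 CPM, and Stat3 the lowest at 322 and 245 CPM. Of 7 genes that shed or bind syndecans, 5 were tested in each experiment with 1 higher, the membrane protease Mmp14 (38.9 and 116 CPM, then 124 and 289.6 CPM), and 0 lower. Timp3, an inhibitor of such proteases, was the lowest of them at 1479 and 891 CPM (0.603-fold [0.586 to 0.621]) and 2025 and 1280 CPM (0.632-fold [0.626 to 0.638]), and the medians were 0.45 and 0.28.

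In the organoids these lists differed little between conditions. In the epithelium 1 gene passed 2-fold, Plat among 7 proteases and inhibitors tested, at 4.69 CPM with normal and 12.7 CPM with fibrogenic FBs (2.71-fold [2.39 to 3.08]), and Hgfac was the lowest of that list at 6.46 and 5.78 CPM. Of all genes tested there, 0.213% were higher and 0.142% lower. The medians of the 6 lists were between −0.02 and 0.22, against 0.04 over all genes. The widest ratio among the others was that of the integrin Itgb3, at 16.5 and 27.5 CPM. In organoid FBs 0 listed genes passed 2-fold, where only 0.333% of all genes were higher and 0.778% lower, and the medians were between −0.14 and 0.22, against 0.01 over all genes. Their widest ratios were those of Hs6st2 (49.0 and 91.2 CPM, 1.86-fold [1.80 to 1.92]) and Gpc3 (22.6 and 12.4 CPM, 0.546-fold [0.514 to 0.580]).

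The pattern of each gene was also compared with that of all other genes over 18 groups of cell class and library, as the Pearson correlation of log2(CPM + 1), for genes with a mean of at least 10 CPM. The groups come from all 3 experiments, which differed in gene annotation and depth, and groups of 1 library share it, so this is a description. Genes most like Mdk were the collagens Col3a1 (r = 0.955), Col1a1 (0.95) and Col16a1 (0.946), with Igf1 (0.949) and the matrix protease Mmp2 (0.943). Most like Hgf were Afap1 (0.968), Dennd2a (0.963), Ksr1 (0.956), Meis2 (0.956) and Casp4 (0.955). Most like Met were Ehf (0.923), Adgrg1 (0.922), Lpcat1 (0.915), Tc2n (0.913) and Abca3 (0.912), of which Lpcat1 and Abca3 belong to the surfactant machinery of AEC2s. Sdc1 was most like Sorcs2 (0.941), Pcbd1 (0.912), Ptprf (0.90) and Ociad2 (0.898). For Sdc4 they were Tmem53 (0.889), Ggcx (0.879), Hacd1 (0.874), Akr1b8 (0.868) and Smim1 (0.867). Ptn, with a mean of 6.09 CPM, was below the limit for this comparison.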

How the data were processed

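Counts of unique molecular identifiers (UMIs, tags that mark single captured mRNA molecules) per gene and barcode, made by the authors, were used as deposited for 6 libraries. Cell Ranger 3.0.1, Seurat 3 and mm10 come from the submitters' processing notes. The 6 members and the pathway lists were chosen with earlier results of these data known.

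Clusters whose mean was above 25% mitochondrial or 0.5% haemoglobin UMIs were removed, with barcodes over 3 scaled median absolute deviations above the median of their cluster. The rest were clustered by experiment, and FBs and epithelium again. Clustering used scikit-learn 1.9.0 and igraph 0.11.9, with 2000 variable genes without members and listed genes, 30 components, 20 neighbours and Leiden resolution 1. Names came from marker lists, so they may differ from the study's names. After the data were seen, organoid clusters with at least 3 markers at 10% or more of the other lineage's level were set aside as mixed, and epithelial clusters with no raised marker list were called AEC2-like where 75% of AEC2 markers stood at 50% or more of the highest cluster's level. Doublets were kept: Scrublet (scanpy 1.11.5) marked 0 to 11 barcodes per library, under 0.5% in 5 of 6 libraries, so it did not work there.

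UMIs were summed per class and library and scaled to counts per 1000000 (CPM). With 1 library per condition, no test was possible. A gene was tested against the 2-fold limit where its mean CPM was at least 5, and called past it where log2 of the ratio after adding 1 CPM was at least 1 or at most −1. Intervals were exact (Poisson for CPM, Clopper-Pearson for shares, conditional binomial for folds) at 95%. Steps were tested on simulated data. The text names all members, the highest and lowest gene of each list, and per member the 5 genes most alike over groups of at least 50 cells (mean of at least 10 CPM). 1 of these for Sdc1 is not reported here. Genes past 2-fold in a list and leading genes of clusters were named after their values were seen. Alternatives covered the pseudocount, the CPM minimum, centring, all barcodes, depth, resolution, filters, doublets and the genes clustered.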

Additional observations from a re-analysis of the deposited data

Results flagged for a closer look

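The sign of the log2 ratio of Ptn and Sdc4 differed between the single-dose and the repetitive experiment, and that of Sdc1 between the epithelium and the FBs of the organoids, and none of these differences was tested, since each condition was 1 library. In lung FBs the log2 ratio of bleomycin over PBS for Ptn was −0.63 after a single dose and 0.96 after repetitive doses. The single-dose value rests on 9 PBS and 28 bleomycin cells with a Ptn UMI, and no direction is read from it. For Sdc4 the log2 ratio was 0.14 after a single dose and −0.16 after repetitive doses, both well inside the 2-fold limit. In the organoids the log2 ratio of fibrogenic over normal for Sdc1 was 0.31 in the epithelium and −0.20 in the FBs.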

How the results depend on the processing

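No paired analysis was possible because each condition was 1 library. Each count of members past 2-fold was computed under 12 alternatives, and 45 of the 48 counts were within 1.5 times the reported count. With a minimum mean of 20 CPM, 1 member was past 2-fold in the single-dose and 1 in the repetitive FBs, since Sdc1 fell under the minimum. With all deposited barcodes in place of organoid epithelium, 1 member (Ptn) was past it, since FBs then enter the sum. Under these, no called value was reversed. Without organoid FB cluster B, an alternative added after seeing the data, 0 members were past 2-fold in organoid FBs and the log2 ratio of Ptn turned from 1.50 to −0.34. The log2 ratio of Mdk ranged from 1.30 to 1.46 (single dose) and 2.43 to 2.55 (repetitive doses), that of Sdc1 from 2.07 to 3.09 and 2.11 to 3.17, and that of Ptn in organoid FBs from 1.49 to 1.81 with cluster B kept. With a pseudocount of 0.1 CPM, Ptn passed the limit in repetitive FBs (log2 ratio 1.06). With all barcodes, values inside the limit changed sign, for example Sdc1 in organoid epithelium from 0.31 to −0.14 and Mdk in organoid FBs from −0.26 to 0.05. Over all genes, 649 were higher past 2-fold in single-dose FBs, with 1128 at a minimum of 1 CPM and 294 at 20 CPM (366 and 235 lower at 5 and 20 CPM). In repetitive FBs 567 were higher, with 908 and 267 (226 and 160 lower). In organoid epithelium the counts of 21 higher and 14 lower became 50 and 70 with all barcodes and 7 higher at 20 CPM. In organoid FBs 33 higher and 77 lower became 17 and 33 at 20 CPM, and 50 were higher with all barcodes. The counts limit Met in lung FBs (2 to 37 UMIs), and the few cells that carry it limit Ptn.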

Other observations

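Among small FB clusters, which entered no comparison, cluster V of the repetitive experiment (38 cells, all from bleomycin, led by Ccl20) held the highest level of Mdk, 610 CPM [427 to 844], and of Sdc4, 1186 CPM [924 to 1498]. The mesothelial-like cluster J of the single-dose experiment (16 cells) held 20.5 CPM [6.66 to 47.9] of Met on 5 UMIs and 726 CPM [623 to 841] of Sdc4. For Hgf, 1 FB of the repetitive PBS library held 193 of the 4652 UMIs, and 1 FB of the repetitive bleomycin library held 94 of 4190.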
